A study of Mus musculus with 12 samples.

Results

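The synaptonemal complex genes were examined in mouse testes at 2 weeks of age, with 1 array per whole-testis sample, called a testis below. The labels do not say whether a sample pooled animals. The rule named 7 genes, and 6 of them had a probe cluster of their own among the 22180 genes measured, namely the lateral element gene Sycp2, the transverse filament gene Sycp1 and the central element genes Syce1, Syce2, Syce3 and Tex12. The 7th, Sycp3, had no cluster of its own, because the array annotation gives its cluster to Sycp3 and Chpt1 together, and no value is given for it. Sycp2 is therefore the only lateral element gene with a value. The series compared 3 testes of Sox3-KO mice (KO) and 3 testes of Sox3-Sox2KI mice (KI) with 6 wild-type (WT) testes. WT 1, WT 2 and WT 3 were littermates of KI mice, and WT 4, WT 5 and WT 6 were littermates of KO mice. All mice had the C57BL/6N background, and both mutant lines were made with CRISPR/Cas9. Sox3 is an X-linked transcription factor gene of the SoxB1 group. The genotype name of the KI line joins Sox3 with Sox2, its close relative, and the labels give neither the extent of the edits nor the number of founder animals.

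The synaptonemal complex is the protein zipper that holds homologous chromosomes together along their length in meiotic prophase. Lateral element proteins coat the axis of each chromosome, SYCP1 molecules span the gap between the axes, and central element proteins join the SYCP1 ends in the middle. In the mouse testis the genes are known from spermatocytes, the cells in which meiosis takes place, and the first spermatocytes appear in the second week after birth. Whole testis holds spermatogonia, spermatocytes and somatic cells, so fewer spermatocytes and less RNA per spermatocyte cannot be told apart in any value below.

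The promoters of the members are shown because all measured members were lower in KO testes, as described below. RefSeq windows on GRCm38.p6, reaching 250 bases before and 50 bases after each start site, matched 7 of the 7 genes by symbol. The motifs searched, on both strands, were the E-box CACGTG, the E2F motif TTCCCGC, the cyclic AMP response element TGACGTCA and the MYB motif AACNGTT. The SOX motif was searched as ACAATG and ACAAAG. Capitals below mark matches of the E-box and the E2F motif on either strand, and each window reads 5′ to 3′ on its gene's strand. Sycp2 is printed beside the windows with matches as the member with the largest change and none. No other motif overlaps these capitals.
Sycp1 (chr3:102936051-102936350, minus strand): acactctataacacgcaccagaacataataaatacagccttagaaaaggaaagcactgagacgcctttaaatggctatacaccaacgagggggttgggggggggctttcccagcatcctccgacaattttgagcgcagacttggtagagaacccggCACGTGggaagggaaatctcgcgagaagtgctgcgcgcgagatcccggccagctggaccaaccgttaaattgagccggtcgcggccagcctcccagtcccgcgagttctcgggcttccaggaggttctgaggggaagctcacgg
Syce2, second start site (chr8:84872008-84872307, plus strand): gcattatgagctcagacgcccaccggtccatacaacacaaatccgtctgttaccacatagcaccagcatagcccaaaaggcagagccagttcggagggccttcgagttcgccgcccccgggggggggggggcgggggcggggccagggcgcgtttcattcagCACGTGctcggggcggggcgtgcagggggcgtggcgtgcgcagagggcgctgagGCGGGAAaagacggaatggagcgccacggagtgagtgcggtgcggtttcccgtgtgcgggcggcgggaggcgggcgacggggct
Tex12 (chr9:50561219-50561518, minus strand): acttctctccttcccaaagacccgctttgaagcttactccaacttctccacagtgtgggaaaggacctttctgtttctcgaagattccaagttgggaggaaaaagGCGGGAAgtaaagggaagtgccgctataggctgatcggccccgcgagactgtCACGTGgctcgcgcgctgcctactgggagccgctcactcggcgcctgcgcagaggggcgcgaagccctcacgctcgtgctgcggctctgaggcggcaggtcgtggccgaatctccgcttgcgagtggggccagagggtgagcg
Sycp2 (chr2:178407609-178407908, minus strand): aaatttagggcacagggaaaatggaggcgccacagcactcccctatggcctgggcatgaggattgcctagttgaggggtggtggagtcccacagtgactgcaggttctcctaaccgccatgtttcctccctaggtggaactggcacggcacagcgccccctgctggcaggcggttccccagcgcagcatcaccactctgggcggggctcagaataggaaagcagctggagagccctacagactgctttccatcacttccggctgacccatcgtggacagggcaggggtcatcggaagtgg
The E-box began 94 bases before the Sycp1 start site, 88 before the second Syce2 start site and 93 before the Tex12 start site. It was also found in the Sycp3 window. Of 32851 promoter windows of the same length in the RefSeq table, 7.15% hold this motif, and 8.09% of genes have such a window. The E2F motif stood in the Syce2, Tex12 and Sycp3 windows, against 4.6% of all windows and 5.29% of genes. Both motifs contain the pair CG. The windows with a match of either held 15 to 33 such pairs, and the other windows of these genes 5 to 19. The median over all windows was 7, and windows of like CG count were not set beside them. The MYB motif was found in the Sycp1 window (4.45% of all windows). The SOX motif ACAAAG was found in the Syce1 window (18.7% of all windows), and ACAATG, in 12.6% of all windows, in no window of these genes. The cyclic AMP response element, in 1.79% of all windows, was in none of them. The Sycp2 window and both Syce3 windows held none of the motifs. A match describes letters in a window and does not show binding.

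The values were log2 expression values as deposited, for which RMA and other tools are named. Array medians lay between 5.74 and 5.82. The 1089 olfactory receptor genes, most of them silent outside the nose, had a 95th percentile of 5.33, used here as the upper edge of background. Every member lay far above it in every testis. Sycp1-ps1, a pseudogene copy of Sycp1, was at background (2.66 to 3.44 over the 12 arrays). The gene table places Gcdh across part of the Syce2 locus, Il18 across part of the Tex12 locus and predicted genes across parts of the Sycp1, Sycp2 and Syce1 loci, and whether the probes of these members read both genes was not tested. Sox3 itself was 6.57 to 6.65 in KO and 6.75 to 7.26 in KI testes, against 7.21 to 7.36 in WT testes. The array labelled KI 1 had the Sox3 level of 7.26, inside the WT range.

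All 6 measured synaptonemal complex genes fell in KO testes against the 6 WT testes (limma over all genes, Benjamini-Hochberg adjusted p 0.0204 to 0.0335). Over all 22180 genes 2.34% fell and 2.52% rose, which is 4.86% called in either direction. The differences ran from -0.98 for Sycp2 to -0.35 for Syce2 on the log2 scale. Their median was -0.75, where the median over all genes was 0.04. In KI testes none of the 6 passed against WT. The median difference there was -0.19, and the median over all genes was 0. The KO and the KI comparison share the 6 WT arrays.

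Sycp2 encodes a lateral element protein that binds SYCP3 along the chromosome axis. It was 9.53, 10.52 and 9.80 in KO 1, KO 2 and KO 3. In KI 1, KI 2 and KI 3 it was 10.47, 10.91 and 10.81. The 6 WT testes had a lowest value of 10.61, a median of 10.98 and a highest value of 11.21. All KO testes lay below all WT testes, with KO 2 close to the WT range, and KI 1 lay just under it. The KO minus WT difference was -0.98 (SE 0.20, 95% interval -1.41 to -0.55, limma adjusted p = 0.0317), a 1.97-fold lower level. It stood at rank 186 of the 22180 differences, counted from the lowest.

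Sycp1 encodes the transverse filament protein that bridges the lateral elements. It was 9.71, 10.48 and 9.83 in the 3 KO testes and 10.45, 10.66 and 10.58 in the 3 KI testes, against a lowest of 10.45, a median of 10.81 and a highest of 11.02 in WT testes. KO 2 fell inside the WT range for Sycp1, while KO 1 and KO 3 were below it. The KO minus WT difference was -0.75 (SE 0.16, limma adjusted p = 0.0321).

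Syce3 encodes a small central element protein needed for the other central element proteins to load. Its values were 7.65, 8.20 and 7.57 in the 3 KO testes and 8.33, 8.57 and 8.64 in the 3 KI testes, against 8.48, 8.73 and 8.84 as the lowest, median and highest WT values. KO testes lay below all KI and all WT testes. Syce3 had the smallest adjusted p of the members, with a KO minus WT difference of -0.88 (SE 0.13, 95% interval -1.18 to -0.59, limma adjusted p = 0.0204), a 1.84-fold lower level. By unadjusted p it stood at rank 24 of 22180 genes.

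Tex12 and Syce2 encode partners that assemble into the fibre running along the central element. Tex12 was 8.33, 8.82 and 8.28 in the 3 KO testes and 8.80, 9.0 and 9.15 in the 3 KI testes, against a lowest of 8.94, a median of 9.28 and a highest of 9.49 in WT. Its KO minus WT difference was -0.75 (SE 0.15, limma adjusted p = 0.0317). KO testes lay below all WT testes, and KI 1 lay below the level of KO 2. Syce2 was 9.24, 9.50 and 9.30 in the 3 KO testes and 9.44, 9.48 and 9.68 in the 3 KI testes, against a lowest of 9.65, a median of 9.67 and a highest of 9.79 in WT. Its WT values were the closest together among the members, with an SD of 0.06 (n = 6). Syce2 had the smallest KO difference of the members, -0.35 (SE 0.08, 95% interval -0.52 to -0.18, limma adjusted p = 0.0335), a 1.28-fold lower level. All KO testes were below all WT testes, and KI 1 and KI 2 lay just below KO 2.

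Syce1 encodes a central element protein needed for stable synapsis. It was 7.97, 8.40 and 8.0 in the 3 KO testes and 8.29, 8.48 and 8.47 in the 3 KI testes, against a lowest of 8.46, a median of 8.61 and a highest of 8.84 in WT. KO 2 was just below the WT range and KI 1 lay below KO 2. The KO minus WT difference was -0.52 (SE 0.11, limma adjusted p = 0.0320). For 5 of the 6 members, all but Sycp1, every KO testis was below every WT testis, and 4.59% of all genes had that order.

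**Figure D1:**
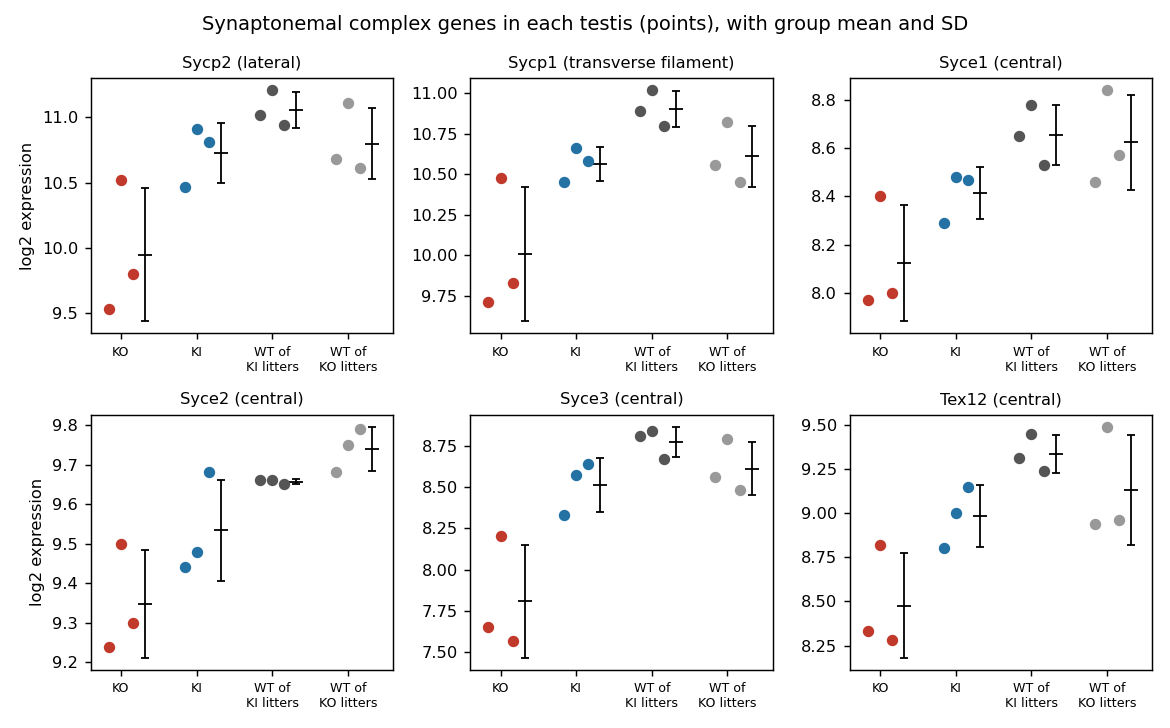
Log2 expression (vertical axes, not starting at 0) of the 6 measured synaptonemal complex genes in KO, KI, WT of KI litters and WT of KO litters (horizontal axes). Points are single testes and bars are the group mean and SD (n = 3). KO 2, the middle KO point, is the highest KO testis in every panel, and KO 1 and KO 3 are below all other testes.

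KO testes differed among themselves in all 6 genes. KO 2 was above the mean of KO 1 and KO 3 by 0.85 for Sycp2, 0.71 for Sycp1, 0.59 for Syce3, 0.52 for Tex12, 0.41 for Syce1 and 0.23 for Syce2. The gap was widest for Sycp2 and narrowest for Syce2, which also had the largest and the smallest KO minus WT difference. The KO SD was 0.51 for Sycp2 and 0.14 for Syce2 (n = 3), against 0.24 and 0.06 in WT (n = 6). Sox3 levels in the 3 KO testes spanned only 6.57 to 6.65.

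The calls in KO testes rested on which arrays were used, while the sizes moved less. With each array left out in turn, the Sycp2 difference ran from -1.26 to -0.77, that of Syce3 from -1.08 to -0.77 and that of Syce2 from -0.43 to -0.30. Without KO 1, KO 3 or WT 3 none of the 6 passed, and without WT 1, WT 2 or WT 5 Syce3 alone passed (limma, highest adjusted p = 0.153). Without KO 2, WT 4, WT 6 or any KI array all 6 passed. When all 41345 clusters were tested one by one the adjusted p of the members lay between 0.0524 and 0.0761 with the differences unchanged.

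Against their own 3 WT littermates, KO testes had lower values of all 6 genes, and none passed the adjusted test (limma adjusted p 0.136 to 0.174). In that comparison 0.00902% of all genes were called. At an unadjusted p under 0.05 all 6 members were lower, and 6.47% of all genes were. The differences were -0.85 for Sycp2 (95% interval -1.34 to -0.36), -0.80 for Syce3, -0.65 for Tex12, -0.60 for Sycp1, -0.50 for Syce1 and -0.40 for Syce2. For 5 of 6 members every KO testis lay below every KO littermate, as for 7.13% of all genes. Without KO 2 all 6 passed against the littermates, with adjusted p between 0.0178 and 0.0355, and without any other single array none did. Against the 3 WT testes of the KI litters instead, 5 of the 6 passed, with differences of -1.11 for Sycp2 and -0.97 for Syce3, and Syce2 did not (-0.31, limma adjusted p = 0.0636). The KO calls thus differed with the WT litters used as control.

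In KI testes the 6 genes differed from WT by -0.25 to -0.16, and none passed. KI 1 was the KI array with a Sox3 level in the WT range. Without it Sycp2 was at -0.06, Syce3 at -0.09, Syce2 at -0.12, Sycp1 at -0.14, and Syce1 and Tex12 at -0.16. With each array left out in turn the Sycp2 difference ran from -0.29 to -0.06 and that of Tex12 from -0.33 to -0.16. No gene of the 22180 passed in this comparison (0%), and at an unadjusted p under 0.05 none of the 6 members and 5.24% of all genes differed. No member had all KI testes below all WT testes, an order found for 1.31% of all genes. For Sycp2 the 95% interval was -0.62 to 0.23, for Syce3 -0.47 to 0.12 and for Syce2 -0.33 to 0.01. These intervals include 0 and reach down to -0.62 for Sycp2, so equal levels in KI and WT testes are not shown.

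Against their own littermates the KI values sat lower. Every KI testis was below all 3 KI littermates for Sycp2, Sycp1, Syce1, Syce3 and Tex12, which is 5 of 6 members, while 6.07% of all genes had that order. The differences were -0.35 for Tex12 (95% interval -0.73 to 0.03), -0.34 for Sycp1, -0.32 for Sycp2, -0.26 for Syce3, -0.24 for Syce1 and -0.12 for Syce2. None passed (limma adjusted p = 0.93 for each), no gene of the 22180 did (0%), none of the 6 had an unadjusted p under 0.05, and 4.51% of all genes did. KI 1 had the lowest value of the KI testes for all 6 genes.

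The WT testes of the KI litters stood above those of the KO litters for 5 of 6 members, by 0.29 for Sycp1, 0.26 for Sycp2, 0.20 for Tex12, 0.17 for Syce3 and 0.03 for Syce1, and below them by -0.09 for Syce2. None of these differences passed (limma, lowest adjusted p = 0.891), none had an unadjusted p under 0.05, and 5.29% of all genes did. WT 4 and WT 6 were the lowest WT testes for Sycp2, Sycp1, Syce3 and Tex12, while WT 5, of the same litter origin, lay among or above the WT testes of the KI litters for these genes. The Syce1 difference turned to -0.03 without WT 2 and to -0.05 without WT 4.

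The mutants were also compared with each other. Syce3 was 8.51 ± 0.16 in KI and 7.81 ± 0.34 in KO testes (SD, n = 3 each), and every KI testis was above every KO testis, as for 9.56% of all genes. Sycp2 was 10.73 ± 0.23 in KI and 9.95 ± 0.51 in KO testes (SD, n = 3 each), with KI 1 just below KO 2. The KI minus KO differences were 0.78 for Sycp2 (95% interval 0.29 to 1.28), 0.71 for Syce3 (0.37 to 1.05), 0.56 for Sycp1, 0.50 for Tex12, 0.30 for Syce1 and 0.19 for Syce2 (-0.01 to 0.38). None passed among all genes (limma adjusted p 0.133 to 0.292), and no gene of the 22180 did (0%). At an unadjusted p under 0.05, 5 of the 6 members were higher in KI testes, and 7.16% of all genes were. Without KO 2, Sycp2, Sycp1 and Syce3 passed, with limma adjusted p of 0.0283, 0.0335 and 0.0161, and 342 of all 22180 genes rose. Without any other single array no member passed. With own littermates as the control on each side, the KI effect minus the KO effect was 0.54 for Syce3 (95% interval 0.06 to 1.02, limma adjusted p = 0.847) and between 0.26 and 0.52 for the other members. None of the 6 passed, nor did any gene (0%), 1 of the 6 (Syce3) had an unadjusted p under 0.05, and 5.83% of all genes did.

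**Figure D2:**
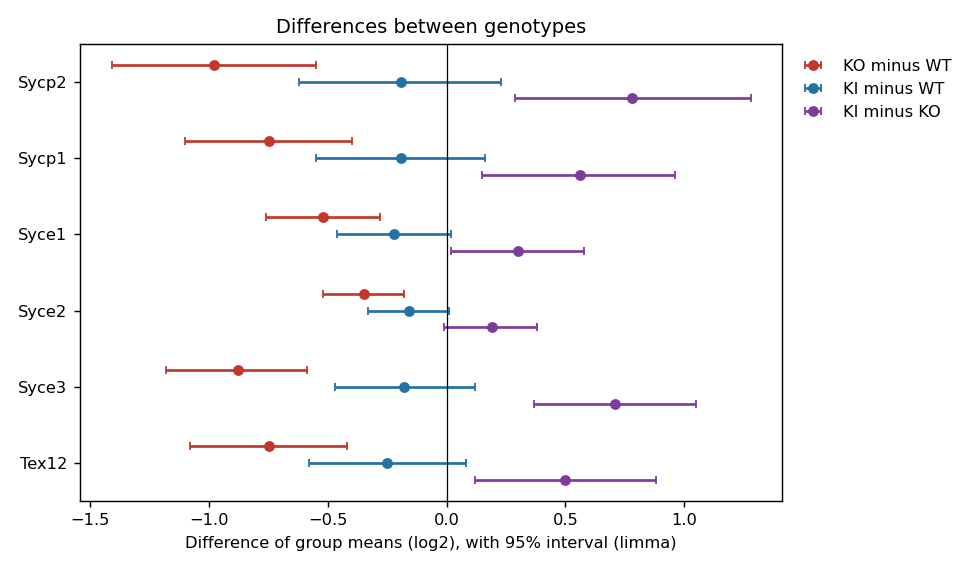
Differences between group means on the log2 scale (horizontal axis) for each synaptonemal complex gene (rows), as KO minus WT, KI minus WT and KI minus KO. Points are limma estimates and bars are 95% intervals. The KO minus WT intervals lie below 0 for all 6 genes, and the KI minus WT intervals all include 0. The KO minus WT estimates run from -0.98 for Sycp2 to -0.35 for Syce2.

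Lateral and central element genes were then set beside each other in each testis, as levels minus the mean of the 6 WT testes. The lateral element, Sycp2 alone, was at -1.40, -0.41 and -1.13 in KO 1, KO 2 and KO 3. The mean of the 4 central element genes was at -0.77, -0.33 and -0.78 in the same testes. The transverse filament gene Sycp1 was between them in KO 1 and KO 3, at -1.05 and -0.93, and at -0.28 in KO 2. The central minus lateral difference was 0.63, 0.08 and 0.35 in KO 1, KO 2 and KO 3 and between -0.17 and 0.11 in KI testes, against -0.16 to 0.20 in WT testes. KO 1 and KO 3 lay above the WT range and KO 2 inside it, so the groups overlap. A score over chosen genes was not tested. The KO mean was 0.35 ± 0.28 (SD, n = 3), and the KI mean was -0.01 ± 0.14 (SD, n = 3), against a WT SD of 0.13 (n = 6).

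The central element genes differed among themselves in the size of the KO difference. The Syce3 interval (-1.18 to -0.59) and the Syce2 interval (-0.52 to -0.18) in KO against WT do not overlap, although both genes belong to the central element. Against the KO littermates alone they do, at -1.14 to -0.46 for Syce3 and -0.59 to -0.2 for Syce2. The difference between the genes was not tested. Syce3 minus Syce2, each relative to WT, was -0.58, -0.30 and -0.72 in KO 1, KO 2 and KO 3 and -0.10 to 0.09 in KI testes, against -0.31 to 0.19 in WT testes, so KO 2 lay at the edge of the WT range. The Syce3 difference lay nearer to that of Sycp2 (-0.98) than to those of Syce1 (-0.52) and Syce2 (-0.35). With Sycp2 as the only lateral gene, an order by element cannot be told apart from an order by gene.

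**Figure D3:**
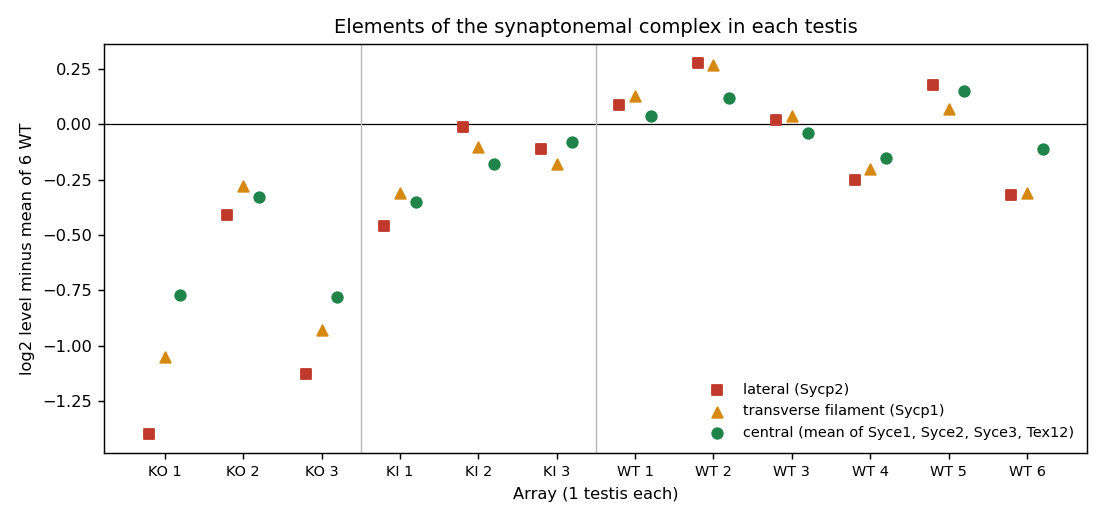
Log2 level minus the mean of the 6 WT testes (vertical axis) in each of the 12 testes (horizontal axis), for the lateral gene Sycp2, the transverse filament gene Sycp1 and the mean of the 4 central genes. KO 1 and KO 3 are lowest, with the lateral point under the central point by 0.63 and 0.35, and KO 2 lies near KI 1.

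The profiles of the members across the testes lay close together for some pairs and further apart for others. After each gene was centred on its own mean over the 12 arrays, the root mean square difference between profiles was 0.102 for Sycp1 and Syce3, 0.105 for Sycp1 and Tex12 and 0.126 for Sycp1 and Sycp2. It was widest, at 0.365, for Sycp2 and Syce2, and Syce2 lay at 0.27 from Sycp1 and 0.276 from Syce3. The measure takes in the size of the changes as well as their pattern. Among 14551 other genes above background, the 5 whose profiles lay nearest to the mean profile of the members were Dtl (0.061), Senp2 (0.071), Spata1 (0.073), Atr (0.073) and Ythdc2 (0.076). The median gene lay at 0.375. Atr encodes a checkpoint kinase that acts on unsynapsed chromosomes in spermatocytes, Ythdc2 an RNA helicase needed for meiotic entry, and Dtl a substrate receptor of a replication-linked ubiquitin ligase. Their KO minus WT differences were -0.73 for Atr, -0.64 for Ythdc2 and -0.71 for Dtl. These genes were picked for profiles like that of the members, so their lower KO levels follow from the choice and are no separate result. Taken gene by gene, the nearest profile was Tex101 for Sycp2 (0.064), Tmem59l for Sycp1 (0.076), Trim37 for Syce1 (0.073), Zcwpw1 for Syce2 (0.069), Mybl1 for Syce3 (0.078) and Spata1 for Tex12 (0.074). Mybl1 encodes a transcription factor of spermatocytes, and Zcwpw1 a histone mark reader of meiotic prophase. All of these profiles share the same 12 arrays and the same low KO 1 and KO 3 values.

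Genes of other steps of meiotic prophase were lower in KO testes as well. Of 42 listed genes 37 had a cluster of their own, and 21 of these fell, none rose and 16 missed the threshold. Over all 22180 genes 2.34% fell and 2.52% rose. The median difference was -0.55, against 0.04 over all genes. Without KO 1, KO 3 or WT 3 none fell, and without WT 1, WT 2 or WT 5 only 1 did. Without KO 2 it was 26, and 948 of all genes fell. The list median lay between -0.69 and -0.45 over the arrays left out. Among genes of strand exchange 4 of 6 fell, with a median of -0.75, and among those that attach telomeres to the nuclear envelope 4 of 5 fell, with a median of -0.70. Crossover genes fell in 5 of 8 cases, and break formation genes and axis and cohesin genes in 3 of 6 and 3 of 7 cases, with medians of -0.57, -0.33 and -0.35. Of the 4 other prophase genes 2 fell, with a median of -0.41. The central region partner of SYCE1, annotated as 4930447C04Rik and also called Six6os1, differed by -0.37 (limma adjusted p = 0.0739, not passed).

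Of the listed genes the smallest p-values belonged to Majin, a telomere attachment gene (-1.22, SE 0.19), Hfm1, a helicase of crossover formation (-1.12, SE 0.19), Spata22, a single-strand DNA binding partner (-1.25, SE 0.23), and Msh4, of the crossover-promoting MutS pair (-1.28, SE 0.24). Their limma adjusted p-values were 0.0204, 0.0267, 0.0295 and 0.0310. In KI testes none of the 37 passed against WT (median -0.07, limma), and none passed in KI against KO (median 0.49).

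**Figure D4:**
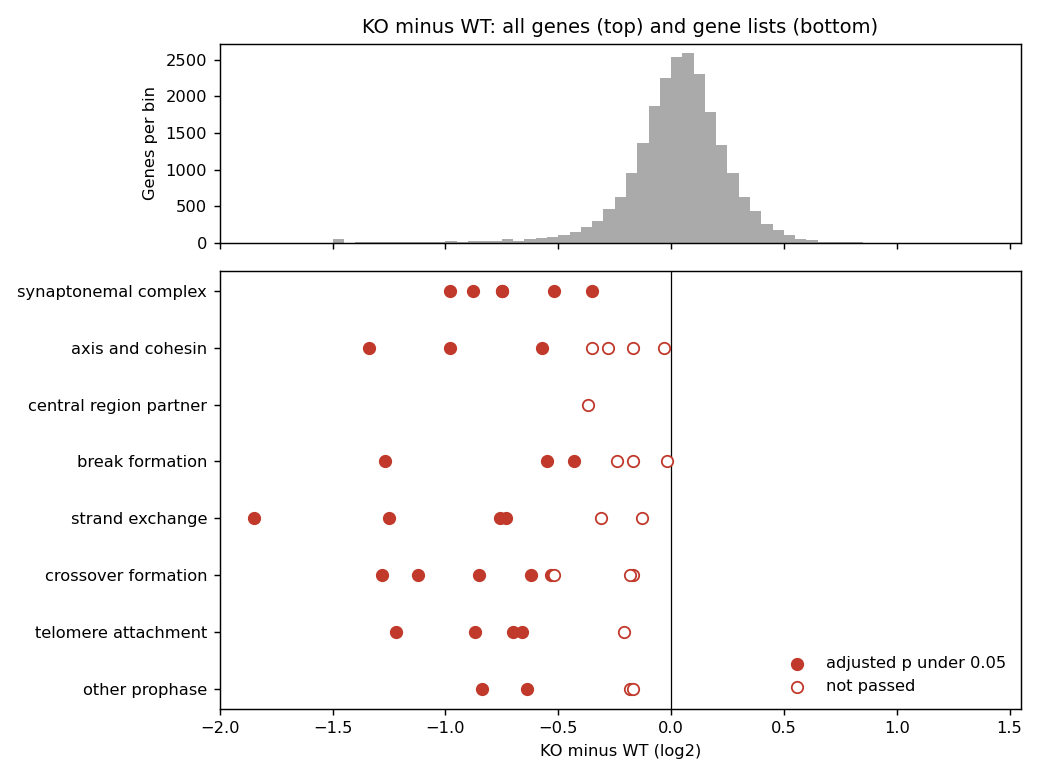
KO minus WT on the log2 scale (horizontal axis) for all 22180 genes as a histogram (top, values past the outer bins are counted in those bins) and for the synaptonemal complex genes and 7 groups of other prophase genes (bottom). Filled points passed the test at adjusted p under 0.05 and open points did not. The 6 synaptonemal complex genes, -0.98 to -0.35, all lie in the left tail.

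Some markers of germ cell stages and of somatic cells changed as well, while the larger share missed the threshold. Over all 22180 genes 2.34% fell and 2.52% rose in KO testes. Of 5 pan-germ cell markers 2 fell in KO testes, Ddx4 (-0.61) and Dazl (-0.39). The 3 that did not pass were Tdrd1 (-0.60), Mael (-0.42) and Dnd1 (0.20). The log2 of the summed signal of the 5 was 12.52 to 12.85 in KO and 12.93 to 13.10 in KI testes, against 12.91 to 13.32 in WT testes. Of 7 markers of pachytene and later spermatocytes 3 fell, and the median difference of the 7 was -1.3. Those that did not pass were Adam2 (-2.21), Piwil1 (-1.68), Ldhc (-1.21) and Ccna1 (0.06). The summed level was 9.29 to 10.24 in KO and 10.43 to 10.95 in KI testes, against 10.15 to 11.43 in WT testes. None of 5 markers of differentiating spermatogonia passed (summed level 10.92 to 11.08 in KO and 11.14 to 11.23 in KI testes, against 11.16 to 11.25 in WT testes). Of these Sohlh1 differed by 0.22 in KO testes and the others by -0.31 to -0.17. Of 6 markers of undifferentiated spermatogonia 3 rose in KO testes, Gfra1 (0.70), Ret (0.71) and Etv5 (0.35). Zbtb16 (0.12), Id4 (-0.36) and Eomes (-0.07) did not pass, and Eomes was at background. The summed level of the 6 was 10.31 to 10.38 in KO and 10.19 to 10.31 in KI testes, against 10.01 to 10.14 in WT testes. This sum follows its strongest marker most, which was Zbtb16 (WT mean 8.78). Among somatic markers 1 of 6 Sertoli genes, Fshr (0.36), and 1 of 4 Leydig genes, Hsd3b1 (0.63), rose. The Sertoli sum was 12.97 to 13.14 in KO and 12.86 to 12.95 in KI testes, against 12.75 to 12.93 in WT testes. The Leydig sum was 11.41 to 11.68 in KO and 9.76 to 11.03 in KI testes, against 9.84 to 11.32 in WT testes. None of 3 peritubular, 3 endothelial and 3 macrophage markers passed. All 4 measured spermatid markers, Prm1, Tnp1, Tnp2 and Acrv1, were at background. Without KO 1, KO 3, WT 1, WT 2, WT 3 or WT 5 no pan-germ, pachytene, Sertoli or Leydig marker passed, and 1 or 2 markers of undifferentiated spermatogonia did. Without any KI array the Sertoli and Leydig calls were lost as well, and 1 pan-germ marker passed. Without KO 2 or WT 4 there were 4 Sertoli calls, and without WT 4 or WT 6 there were 4 pan-germ and 5 pachytene calls. Whether these marker differences reflect cell make-up was not tested, nor was their part in the lower synaptonemal complex values.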

How the data were processed

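The 12 whole-testis samples were hybridised to 1 Affymetrix whole-transcript array each, from 500 ng of RNA per the labels' protocols. The authors deposited log2 values for 41345 probe clusters. Partek 6.6, RMA and Affymetrix Expression Console appear, without roles, per the submitters' processing notes. RMA, where used as usual, gives all arrays 1 distribution, so a value is relative to the rest of its array.

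Gene symbols came from the platform annotation (23521 clusters with 1 symbol, 1814 with several, 16010 with none). The single-symbol cluster with the highest mean stood for each gene, and each member had only 1. Groups followed the genotype labels. Differences were tested two-sided in limma 3.58.1 under R 4.3.3 (lmFit, then eBayes), with 3 genotypes or 4 label groups over all 12 arrays and Benjamini-Hochberg adjustment over all 22180 genes at 0.05. The code was tested on simulated data. The labels call the replicates biological, and p-values measure the spread between these testes. Their number limits the precision. Promoter windows came from RefSeq (GRCm38.p6) through Python 3.11.15. The text names all members, the 4 listed prophase genes of smallest p and the genes of nearest profile. Members and lists were chosen with earlier results of these data known. Alternatives changed scaling, dim-gene filter, array weights, variance model, cluster choice, WT controls, the replicate block and the arrays used. Leaving out arrays for the prophase and marker lists was chosen after seeing the data.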

Additional observations from a re-analysis of the deposited data

How the results depend on the processing

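The 6 synaptonemal complex genes kept their direction in KO against WT, KI against WT and KI against KO under every alternative run. In KO against WT, 6 members and 1078 genes passed. With all clusters tested one by one 0 members and 8 genes passed, against littermates alone 0 members and 2 genes, and against the WT testes of the KI litters alone 5 members and 1345 genes. Among genes above the median level 2459 genes passed, and with a mean-variance trend and robust prior 2048. With 1 array left out, 0 to 6 members and 2 to 2323 genes passed. In KI against KO, 0 members and 0 genes passed, with 57 genes above the median level, 5 with the trend and 0 to 721 genes and 0 to 3 members with 1 array left out. In KO against its littermates, 0 members and 2 genes passed, with 32 genes above the median level, 41 genes and 1 member (Syce3) with the trend, 1 gene with array weights, with the mean of clusters or with all clusters, and 0 to 605 genes and 0 to 6 members with 1 array left out. Between WT litters 0 genes passed, 1 with the trend or with all clusters, and 0 to 50 with 1 array left out (50 without WT 5). The Syce1 litter difference of 0.03 turned to -0.03 without WT 2 and -0.05 without WT 4, within a range of -0.05 to 0.14 over the arrays left out. In KI against WT, KI against its littermates and the difference of the mutant effects, 0 members passed with any 1 array left out, and 0 genes. The prophase list had 0 to 26 falls with 1 array left out, against 21. The cause of these shifts was not tested, except that testing all clusters adds features to the adjustment.

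Whether the replicate numbers of the labels pair the arrays was not tested. Deviations of same-numbered arrays from their group means correlated between -0.03 and 0.16, and in each pair of groups 4 of 6 arrays correlated best with their own number. WT 4, WT 5 and WT 6 carry numbers that no KO or KI array has, so a fit with the replicate number as a block also drops them from the KO and KI contrasts with WT. In that fit 5 members and 1468 genes passed in KO against WT, with Syce2 at -0.31 (adjusted p = 0.111), and 247 genes and 0 members in KI against KO. In the blocked fit 39% of the KO calls were rises, against 50.3% with the same 3 WT testes and no block and 51.8% with all 6 WT testes. The central minus lateral difference kept its value with a new quantile normalization or the mean of clusters within 1 SD. Every member lay above the background edge of 5.33 on every array.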
